A study of Mus musculus with 8 samples.

Results

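The GATA transcription factor genes Gata2, Gata3, Gata4, Gata5 and Gata6 were examined for H3K27me3, the histone mark placed by Polycomb repressive complex PRC2, in primary female neural stem cells (NSCs). Members were all deposited H3K27me3 regions that overlapped the GRCm38 body of one of these 5 genes with 5 kb added on each side, and the rule used no measured value. It found 5 regions of 13585, one for each gene, all on autosomes. The NSCs were grown from cortices of E14.5 embryos on a C57BL/6J background, and every line carried Smchd1, a gene for a chromatin silencing protein, fused to GFP at its own locus. The control group, here WT, had the label Smchd1GFP+/+, and the other group was homozygous for MommeD43 on the tagged allele, a missense variant in the extended ATPase domain of SMCHD1. Each genotype had 3 H3K27me3 ChIP-seq libraries from separate lines of under 10 passages and 1 whole cell extract (WCE) library. The deposited table holds 1 column per genotype, the authors' log2 read count per region scaled to library size and averaged over the ChIP libraries. It therefore carries no replicate spread, no test of the genotypes was possible, and every error below is a counting error derived from the read depth alone.

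GATA factors bind DNA through zinc fingers that recognise the letters GATA. Gata2 and Gata3 act in blood cells and in some neurons, and Gata4, Gata5 and Gata6 act in the heart, the gut endoderm and the gonads. Genes for such lineage regulators carry CpG-rich promoters, and in cells of other lineages these are commonly held silent under broad H3K27me3. The comparison asked whether the share of H3K27me3 reads at the GATA genes differed between WT and MommeD43 NSCs. Counts scaled to library size give such shares and not the absolute amount of the mark per cell, so "higher" here means a larger share of reads, whatever the total.

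All 5 GATA genes lay in H3K27me3 regions with more reads per kb than most autosomal regions, though Gata5 was low for its length, and all 5 had higher values in MommeD43 with the authors' scaling, though with trends in GC content and read density removed only Gata6 did. The share of all regions that were higher was 60.2% and 55.9% in these settings. The differences, MommeD43 minus WT on the log2 scale, were close to one another and ran from 0.33 at Gata4 to 0.40 at Gata5, which is 25.4% to 31.8% more normalized counts. None reached 1 on the log2 scale in either direction, as 6.09% of all regions did upward and 3.03% downward. The median was 0.38, against 0.11 over all regions.

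Gata2, which maintains blood stem cells and also acts in inhibitory neurons, lies on the plus strand of chromosome 6 at 88193891-88207032 (gene ENSMUSG00000015053.14). Its region, 6:88103751-88368550, was 264.8 kb long and reached 90.1 kb upstream and 175 kb downstream of the annotated start, so that the gene filled only 4.96% of it. The region also held Dnajb8, part of Eefsec and the end of Rpn1. Gata3, a regulator of T helper cells, of the inner ear and of sympathetic neurons, lies on the minus strand of chromosome 2 at 9857078-9890034 (ENSMUSG00000015619.10). Its region, 2:9860751-9912700, was 51.95 kb long and covered 88.9% of the gene, with 3673 bp at the 3′ end left outside. The annotated coding genes 4930412O13Rik and 9230102O04Rik lie within Gata3.

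Gata4, needed for heart and endoderm formation, lies on the minus strand of chromosome 14 at 63198922-63271692 (ENSMUSG00000021944.15). Its region, 14:63179301-63521050, was the longest of the family at 341.75 kb, ranked 12 in length among 11707 autosomal regions, and extended 249 kb upstream of the annotated start. It also held Neil2, Blk, Fam167a and Tdh, and touched Fdft1 and Mtmr9. Gata5, which acts in the heart and in endoderm, lies on the minus strand of chromosome 2 at 180325133-180334699 (ENSMUSG00000015627.5). Its region, 2:180271101-180519550, was 248.45 kb long, of which the gene made up 3.85%, and also held Rbbp8nl and Slco4a1 together with parts of Cables2 and Ntsr1. At Gata2, Gata4 and Gata5 the deposited value is thus one value for a long domain with several genes.

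The promoters show the CpG-rich sequence that lies under these regions. RefSeq promoter stretches (GRCm38.p6) were at hand for 3 of the members, and each is printed 5′ to 3′ on the strand of its gene, with every CpG in capitals and bases annotated as UTR left out. For Gata2 it runs to the base before the upstream start (chr6:88193641-88193890), for Gata3 to the base before the RefSeq start (chr2:9878601-9878850), and for Gata5 it covers chr2:180334700-180334929. The RefSeq start of Gata3, at 9878600, lies inside the gene body, downstream of the GENCODE start at 9890034 from which the distances here are counted.
Gata2: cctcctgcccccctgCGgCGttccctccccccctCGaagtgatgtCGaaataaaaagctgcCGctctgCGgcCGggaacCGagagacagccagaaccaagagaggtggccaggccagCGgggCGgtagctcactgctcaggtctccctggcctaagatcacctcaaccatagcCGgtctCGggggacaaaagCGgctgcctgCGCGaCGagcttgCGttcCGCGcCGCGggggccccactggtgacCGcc
Gata3: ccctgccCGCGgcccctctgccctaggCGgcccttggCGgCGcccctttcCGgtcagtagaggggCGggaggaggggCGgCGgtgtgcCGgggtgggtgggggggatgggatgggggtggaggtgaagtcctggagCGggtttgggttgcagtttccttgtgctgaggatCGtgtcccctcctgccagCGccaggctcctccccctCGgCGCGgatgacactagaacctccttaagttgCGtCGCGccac
Gata5: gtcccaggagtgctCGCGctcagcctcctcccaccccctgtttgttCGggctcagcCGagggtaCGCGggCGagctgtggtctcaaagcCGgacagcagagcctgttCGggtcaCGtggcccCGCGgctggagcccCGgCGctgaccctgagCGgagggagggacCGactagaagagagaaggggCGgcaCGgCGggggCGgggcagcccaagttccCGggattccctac

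In the 250 bases before the RefSeq start there were 22 CpGs at Gata2, 19 at Gata3 and 22 at Gata5, against a median of 6 over 32851 RefSeq promoter stretches of that length. The downstream start of Gata2, within its 5′ UTR by GENCODE and not printed, had 24. GC content was 67.2% at the upstream start of Gata2, 74.0% at the downstream one and 70.0% at both other genes, against a median of 52.4%. The letters GATA, searched on both strands, occurred in 0 of these 4 stretches and in 53.6% of all promoter stretches. The longer AGATAA, which contains GATA, occurred in 9.99% of all and likewise in 0 of the 4.

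Gata6, a regulator of endoderm and heart, lies on the plus strand of chromosome 18 at 11052064-11085635 (ENSMUSG00000005836.10). Its region, 18:11041251-11080900, was the shortest of the family at 39.65 kb and held no other coding gene. It began 10.8 kb upstream of the start and left the last 4735 bp of the gene outside, so that the gene made up 72.7% of the region. Even this region was longer than 91.3% of autosomal regions.

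Although the regions differed widely in length, CpG-rich sequence in them was similar in amount. Windows of 200 bp with a GC content over 50% and an observed to expected CpG ratio over 0.6 numbered 26 at Gata2, 25 at Gata3, 30 at Gata4, 22 at Gata5 and 17 at Gata6. The median was 8, with quartiles of 4 and 16, in the 1015 other autosomal regions at least as long as the Gata6 region. Those regions had a median length of 61.4 kb, so the counts are not matched for length. As a share of all windows in the region, Gata2 (2.0%), Gata4 (1.76%) and Gata5 (1.77%) were below the median of those regions, 2.38%. Gata3 (9.65%) and Gata6 (8.59%) were above it. The gene with 5 kb on each side held 23 of the CpG-rich windows at Gata2 and 23 at Gata3. It held 18 at Gata4, all 17 at Gata6 and only 6 at Gata5. The other 16 at Gata5 lay elsewhere in the region. Because the long regions also hold much CpG-poor sequence, their overall CpG content was ordinary, at 11.2 CpGs per kb for Gata2, 11.6 for Gata4 and 12.2 for Gata5. It was 19.3 for Gata3 and 17.6 for Gata6, and the autosomal median was 12.3.

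**Figure D1:**
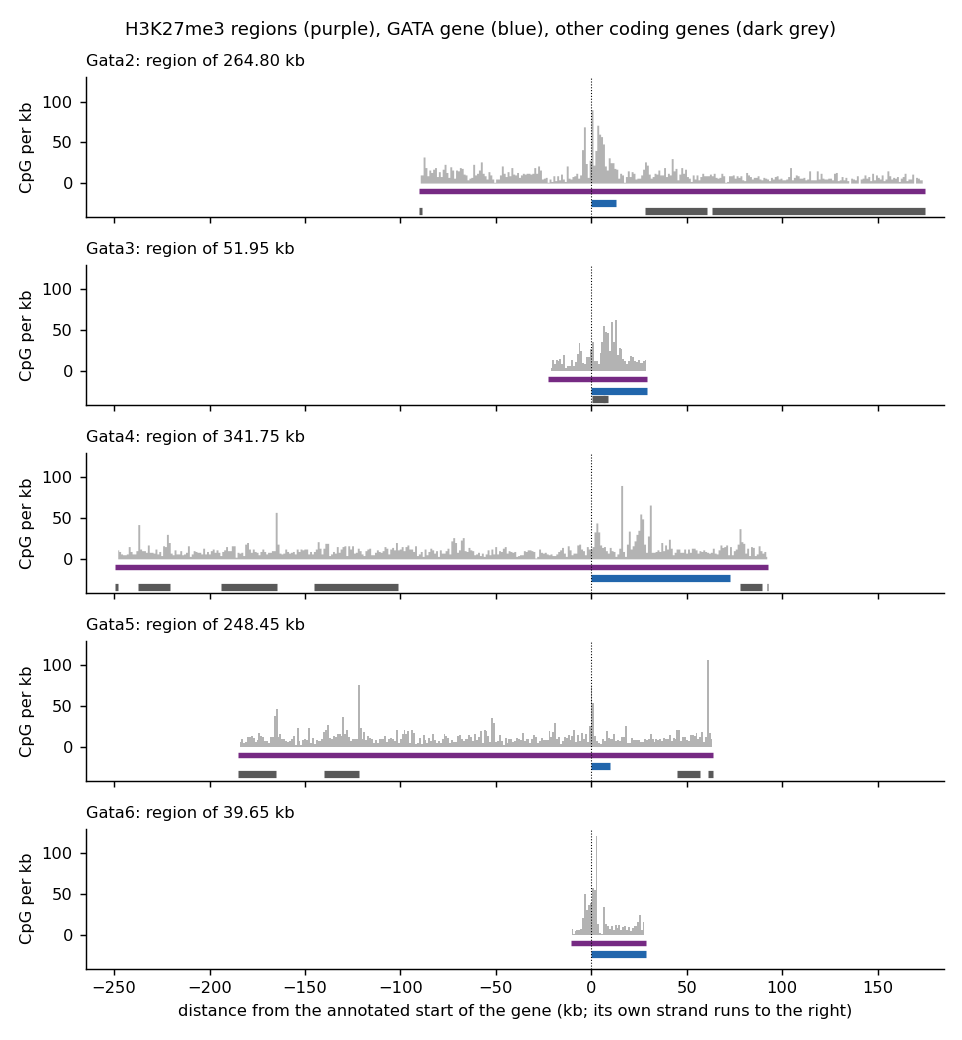
The 5 H3K27me3 regions drawn to scale, with distance from the annotated start of each GATA gene in kb on the x axis and CpGs per 1-kb window on the y axis. Purple bars are the regions, blue bars the GATA genes and dark grey bars other coding genes within the region. CpG peaks sit at all 5 genes, and the Gata5 region has its highest window, with 106 CpGs, away from the gene, against 75 at the start of Gata5.

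Levels were compared per kb of region, since long regions collect more reads. Gata3 had the highest level, with 382 normalized counts per kb in WT and 499 in MommeD43. Gata6 followed with 271 in WT and 345 in MommeD43. Gata4 had 217 and 273, and Gata2 had 199 and 259.9. Gata5 was lowest, with 88.8 in WT and 117 in MommeD43. The order was the same in both genotypes. All 10 pairs of genes differed in level beyond the 95% counting interval in both genotypes, and the closest pair, Gata4 and Gata2, differed by 0.13 on the log2 scale in WT (0.11 to 0.14) and by 0.07 in MommeD43 (0.05 to 0.08). These intervals leave out variation between cell lines, so the order of Gata4 and Gata2 in particular was not checked against replicates.

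Set beside other autosomal regions, the level per kb of Gata3 in WT stood above 99.9% of them, Gata6 above 99.5%, Gata4 above 99.1%, Gata2 above 98.8% and Gata5 above 94.0%. Gata5 was different when regions of like length (log2 length within 0.32) were used. Of 40 such regions, 7 had a lower WT level per kb than Gata5, and their median was 134. For the other members, 478 of 483 like regions were lower than Gata3, 681 of 693 were lower than Gata6, 13 of 15 were lower than Gata4 and 27 of 35 were lower than Gata2. Before division by length, Gata4 ranked 9 among autosomal regions in both genotypes, and Gata2 ranked 16 in WT and 13 in MommeD43. Together the 5 regions made up 0.364% of the covered length and 1.04% of what was counted in WT, or 1.12% in MommeD43.

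**Figure D2:**
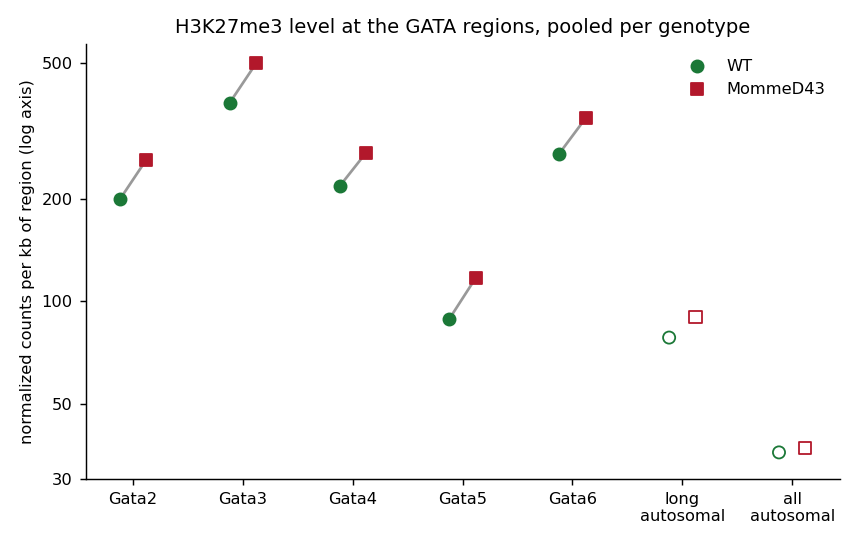
H3K27me3 level in normalized counts per kb of region (log axis) at each GATA gene, with 1 pooled value per genotype (circles WT, squares MommeD43). Open symbols are medians of the 1015 other autosomal regions at least as long as the Gata6 region (78.2 in WT, 89.8 in MommeD43) and of all autosomal regions (36.0 and 37.0), and no symbol has replicate error bars because the columns are pooled. Gata3 is highest and Gata5 lowest in both genotypes.

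Differences between genotypes were then read from the deposited log2 values. Gata5 went from 14.43 in WT to 14.83 in MommeD43, a difference of 0.40 (95% counting interval 0.37 to 0.42). Gata2 went from 15.69 to 16.07, a difference of 0.39 (0.37 to 0.40). Gata3 went from 14.28 to 14.66, a difference of 0.38 (0.36 to 0.41). These 3 values lay within counting error of each other. Gata6 went from 13.39 to 13.74, a difference of 0.34 (0.31 to 0.38), and Gata4 from 16.18 to 16.51, a difference of 0.33 (0.31 to 0.34). Of the 10 pairs of genes, 5 differed in this difference beyond counting error, among them Gata4 against each of Gata2, Gata3 and Gata5. The widest gap, between Gata5 and Gata4, was 0.073 (0.04 to 0.10).

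The depth behind these values was large. The geometric mean count per library ran from 3292 reads at Gata6 to 22729.6 at Gata4 in WT, and from 5189 to 35359 in MommeD43, against medians over all regions of 100.1 and 129.96. The counting error of a difference was therefore at most 0.019 at the GATA genes, where over all regions its median was 0.11. These errors are the smallest that Poisson counting allows, and PCR copies of a fragment, which no molecular identifier removed, would widen them.

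As deposited, all 5 GATA regions were higher in MommeD43, as were 60.2% of all regions, and with GC and density trends removed 1 of 5 was. Among the 11707 autosomal regions, to which all members belong, 57.7% were higher and the median difference was 0.075, whereas X-linked regions, which enter the figures for all regions, had a median of 0.49. As deposited, all 5 were higher by more than the counting interval, as were 40.9% of all regions, most of which had far fewer reads. None was higher by at least 1, against 6.09% of all regions, and none was lower by at least 1, against 3.03%. Among autosomal regions alone, 267 of 11707 were higher and 343 lower by that much. Each GATA difference ranked between the 74.6th percentile, at Gata4, and the 80.3rd percentile, at Gata5, of autosomal regions.

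As deposited, long regions as a class tended to higher differences, and this was set beside the family. With the abundance trend removed the median of that class was -0.040, against -0.029 over autosomal regions. It was -0.037 with GC and density trends removed. The 1015 other autosomal regions at least as long as the Gata6 region had a median difference of 0.23, with quartiles of -0.020 and 0.44, and 73.8% of them were higher in MommeD43. As deposited, the GATA median exceeded theirs by 0.16, an excess of 0.11 with either the abundance or the GC trend removed and of -0.0057 with GC and density trends removed. All members lay inside the interquartile range of those regions. The family spanned 0.073 from lowest to highest, and 79 of the 1015 regions fell within that span. Among regions of like length the median difference was 0.26 for Gata2, 0.21 for Gata3, 0.28 for Gata4, 0.23 for Gata5 and 0.16 for Gata6, so each GATA gene was above the median of its own length class, Gata4 by the least.

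**Figure D3:**
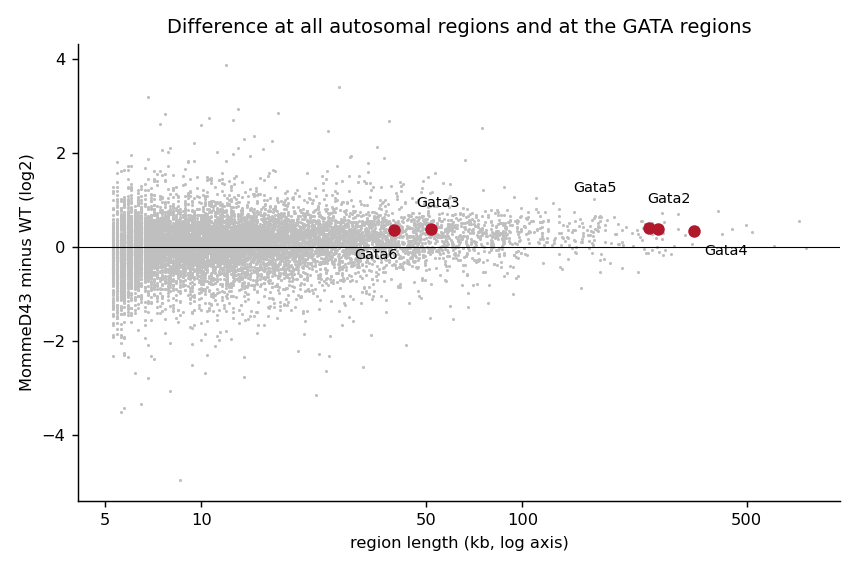
Difference between genotypes (MommeD43 minus WT, log2) against region length (kb, log axis) for 11707 autosomal regions, grey, with the 5 GATA regions in red. Short regions scatter widely, and the GATA regions lie close together between 0.33 and 0.40 as deposited, values that fall below 0 for all but Gata6 with GC and density trends removed, at Gata3 within counting error of 0.

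Nearby regions differed more from one another than the GATA regions did, though most had far fewer reads. Their counting errors reached 0.30, beside Gata6, where the WT value rested on 10.7 reads per library. The deepest of them, beside Gata2, Gata4 and Gata5, differed by 0.25, -0.17 and 0.55. The region next to Gata2 at lower coordinates, 17.2 kb away and overlapping Rpn1, differed by -0.059, within its counting interval (-0.17 to 0.049), and the one at higher coordinates, over Eefsec and Ruvbl1, by 0.25 (0.20 to 0.31). On the lower side of Gata4, a region of 93950 bp over the beta-defensin genes Defb30, Defb42 and Defb43 was lower in MommeD43, by -0.17 (-0.22 to -0.12). The nearer one on the other side, 14.65 kb away over Mtmr9, differed by 0.094, within its counting interval (-0.22 to 0.41). Beside Gata5, the region over Mtg2, Hrh3 and Osbpl2 differed by 0.55 (0.49 to 0.61), and the one over Ntsr1, only 1150 bp from the Gata5 region, by 0.34 (0.24 to 0.44). Gata3 stood alone, with its nearest regions 235 kb and 182 kb away. These were weak, with 18.4 and 22.0 normalized counts per kb in WT, and differed by 0.77 (0.48 to 1.06) and by -0.18 (-0.55 to 0.19). At Gata6 the nearest region, 18.9 kb upstream, had 35.4 normalized counts per kb in WT and a difference of 0.22 (0.032 to 0.42). The one on the other side, 155 kb away, had only 6.43 and differed by 0.98 (0.39 to 1.57).

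The size of the GATA differences depended on how the columns were scaled. Scaling both columns to the total of the regions takes 0.24 off every difference and left 5 of 5 members above 0, with a median of 0.14, while the share of all regions above 0 fell from 60.2% to 37.1%. Under any common scaling factor the GATA median stayed 0.28 above the median of all regions. Removal of the trend of the difference with GC content left a median of 0.17 and reordered the members, with Gata6 highest at 0.29 and Gata5 lowest at 0.089. The Gata5 region had the highest GC content of the family, 50.8%, and the Gata6 region the lowest, 45.5%. Removal of the trend with mean value left all 5 above 0, as it did 50.1% of all regions, with a median of 0.066. Gata4 at 0.0076 and Gata6 at 0.036 were then within counting error of 0. The fitted trend is flat past the middle of its last bin, where Gata2, Gata3, Gata4 and Gata5 lay. The same amount was therefore taken off each of these, and no trend was fitted at their own values. With the trends with GC content and with read density both removed, 1 member was above 0, Gata6 at 0.067, and 4 were below, with a median of -0.042 against 0.048 over all regions, of which 55.9% were above 0. Of the 4, Gata3 at -0.0044 was within counting error of 0. The density step took the same amount off Gata2, Gata3, Gata4 and Gata6, which lay past the middle of its last bin. Each counting error here is that of the deposited value and holds no error of the fitted trend. The direction of the GATA difference was therefore not the same under every scaling.

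**Figure D4:**
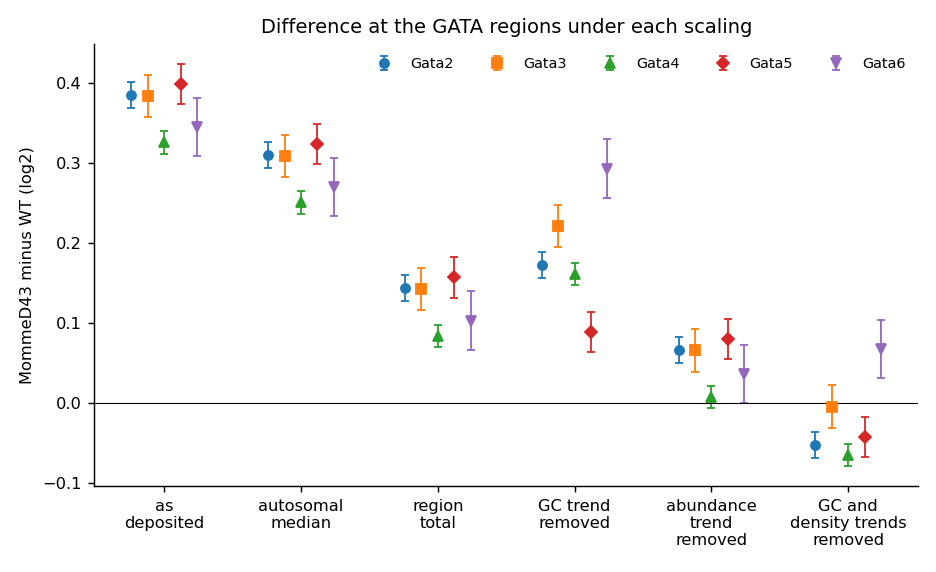
Difference at each GATA region (MommeD43 minus WT, log2) as deposited and under 5 other scalings, with bars for the 95% counting interval of the deposited value. Values fall from 0.33 to 0.40 as deposited to between -0.065 and 0.067 with GC and density trends removed, where only Gata6 is above 0.

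Other genes of the GATA pathway were read by the same rule of overlap. Of 7 relatives and cofactors, 5 had no region, among them Gata1, the X-linked family member that drives red blood cell formation, Zfpm2, a cofactor of Gata4, and Trps1, a repressor with a GATA-type zinc finger. Zfpm1, the cofactor of Gata1 known as FOG-1, lay in a region of 166 kb with 68.9 normalized counts per kb in WT and a difference of 0.24. A region within 5 kb of Gatad2a, a subunit of the NuRD complex, differed by 0.91 but did not hold its start.

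Of 9 partners in blood cells, 8 had a region, and 7 of these were higher in MommeD43 as deposited, as were 60.2% of all regions, with a median difference of 0.24 against 0.11 over all regions and 0.23 over the long autosomal ones. Tal1, which binds DNA in one complex with GATA factors, had 319 normalized counts per kb in WT and a difference of 0.32, both close to the GATA values. The erythroid factor Klf1 differed by 0.23 and Gfi1b, a repressor of the red cell and platelet lineages, by 0.35. Lmo2, the bridging protein of that complex, was the one with a lower value, by -0.12, in a region that did not hold its start. The regions of Runx1 and Spi1 did not hold their starts either, and Ldb1 at 0.24 was within counting error of 0.

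Of 12 partners in heart and endoderm, 11 had a region, and 10 of these were higher as deposited, again against 60.2% of all regions, with a median difference of 0.23, the same as that of the long autosomal regions. Nkx2-5, which works with Gata4 in heart muscle, had 302 normalized counts per kb in WT and a difference of 0.28, and Hand1 and Hand2 differed by 0.39 and 0.16. Foxa2 and Sox17, regulators of endoderm, differed by 0.23 and 0.20. Tbx20 was at -0.0071, within counting error. Tbx5, another partner of Gata4, differed by 2.67, from 33.2 to 211 normalized counts per kb, and was the 1 gene of 21 with a region in these 3 lists that differed by at least 1, against 6.09% of all regions higher and 3.03% lower by that much, or 267 and 343 of the 11707 autosomal regions, to which these genes belong. Over the 3 lists, as deposited, 19 of the 21 were higher and 2 lower, with a median difference of 0.24. The split became 10 higher and 11 lower once both columns had equal region totals, 12 and 9 with the abundance trend removed, and 12 and 9 again with the GC and density trends removed, where the GATA genes were 5 of 5, 5 of 5 and 1 of 5 higher. The share of all regions higher was 37.1%, 50.1% and 55.9% in the same order. The split was 19 and 2 with scaling to the autosomal median and 15 and 6 with the GC trend removed, with 5 of 5 GATA genes higher in both and 53.1% and 55.9% of all regions.

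Partners in neurons were reported for part of their list, so no count or median over it is given. Foxn4, which acts ahead of Gata2 in spinal interneurons, differed by 0.55 as deposited, and Lhx3, a regulator of motor neurons and interneurons, by 0.45. Phox2a, of the noradrenergic neurons in which Gata3 acts, and Tfap2b differed by 0.96 and 0.99 as deposited. Foxn4, Lhx3, Phox2a and Tfap2b were each above every GATA gene as deposited. With GC and density trends removed, Phox2a was at 0.50 and Tfap2b at 1.13. Tal2, a relative of Tal1 that acts with Gata2 in midbrain inhibitory neurons, had no region.

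**Figure D5:**
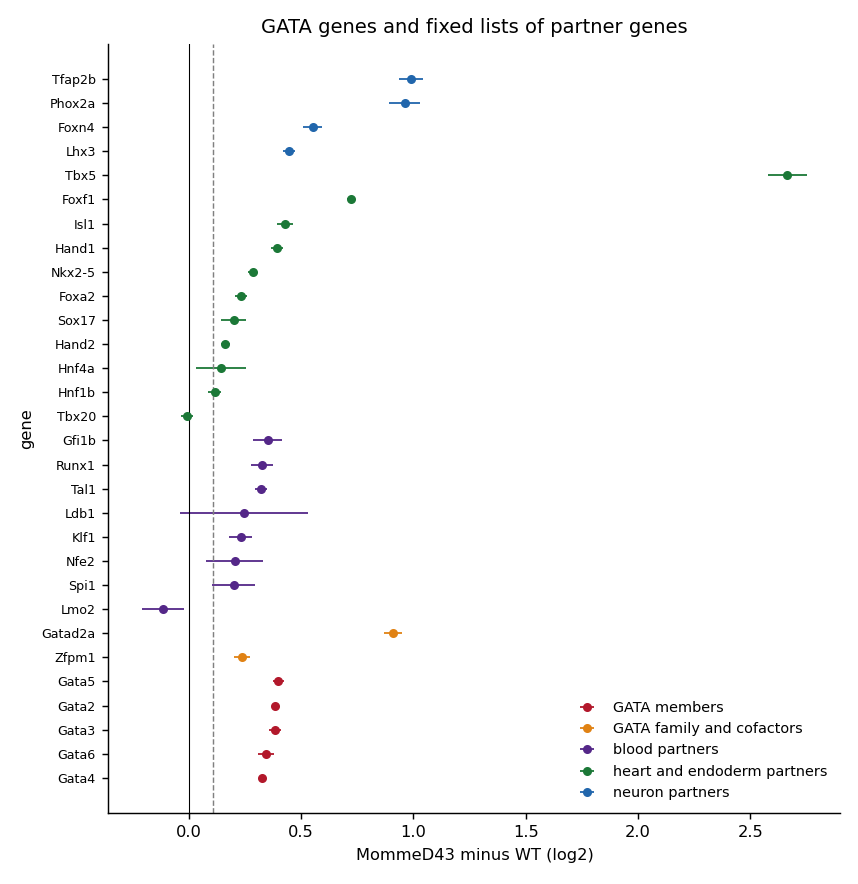
Difference between genotypes (MommeD43 minus WT, log2) at the 5 GATA genes and at the reported partner genes that had an H3K27me3 region, with bars for the 95% counting interval. The dashed line is the median of all regions, 0.11. The GATA genes sit between 0.33 and 0.40, while the partners shown spread from -0.12 at Lmo2 to 2.67 at Tbx5.

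The genes most like each member, by distance between the 2 log2 values per kb among 3470 autosomal regions with exactly 1 coding gene start (3469 for Gata6, itself one of these), were Irx3 and Gsc for Gata2, Onecut2 and En1 for Gata3, Alx4 and Hand1 for Gata4, and Lhx8 and Tbx18 for Gata6. For Gata5 they were Tspoap1 and Bcl2l11. The smallest distance was 0.0084, between Gata3 and Onecut2, and the largest was 0.052. This likeness rests on 2 pooled values for each region.

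The labelled cell type was looked at through genes that NSCs commonly express. Sox2, Olig2, Vim and Fabp7 had no H3K27me3 region. Nes, Pax6 and Gfap had one, with 33.4 to 78.7 normalized counts per kb in WT, below every GATA gene. As deposited, Nes differed by 0.56, Pax6 by 1.18 (33.4 to 75.6 normalized counts per kb) and Gfap by 0.34. Nes and Pax6 thus differed more than any GATA gene. Pax6 was past 1, as were 267 of the 11707 autosomal regions upward, but with equal region totals none of these genes was. RNA levels of the GATA genes were not analysed here.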

How the data were processed

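H3K27me3 ChIP-seq was analysed from 1 deposited table of 13585 regions. The authors trimmed reads with Trim Galore 0.4.4, aligned them with Bowtie2 2.3.4.1 to GRCm38, extended them by 150 bp in SeqMonk, called peaks per genotype on merged replicates against WCE, widened these by 2.5 kb and merged neighbours within 1 kb. The deposited values are log2 read counts scaled by the authors to library size and averaged per genotype, with no division by region length and no WCE subtraction. Region start and end were taken from their own columns, since the region names often give an earlier end. GEO's protocol names micrococcal nuclease, the paper sonication, so fragmentation is uncertain. WCE and single libraries were not analysed here.

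Genes came from GENCODE M21 (GRCm38) and promoters from RefSeq GRCm38.p6. Depth was recovered from the steps between low values: if a value is the mean of 3 log2 counts, its antilog cubed is a product of whole counts, and 1138 of 1139 low products in WT and 681 of 684 in MommeD43 came within 0.1 of whole. On this scale 3.27 units (WT) or 2.63 units (MommeD43) equal 1 read, a step checked on data with known answers. Counting errors assume Poisson counts, and for values with a trend removed they hold no error of that trend. The members and gene lists were chosen with earlier results of these data known. Named were the members, genes and regions beside them, the fixed lists (some genes of the neuron and neural stem cell lists are not reported here), and the 2 most alike genes per member. Where a gene had several regions their counts were summed. Trends were running medians over 40 bins, fitted to all regions for mean value and to autosomal ones for GC content and density. Past the middle of an end bin, the median of that bin was used. No p-value is given. Software was numpy 2.4.6, scipy 1.17.1 and pandas 2.3.3 under Python 3.11.15, with plots from matplotlib 3.10.9.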

Additional observations from a re-analysis of the deposited data

How the results depend on the processing

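No paired analysis was possible because the deposited columns are pooled over replicates, and for the same reason no replicate could be left out. For Gata2, Gata3, Gata4, Gata5 and Gata6 in that order, the difference became 0.14, 0.14, 0.084, 0.16 and 0.10 with equal region totals, 0.31, 0.31, 0.25, 0.32 and 0.27 with scaling to the autosomal median, 0.067, 0.066, 0.0076, 0.080 and 0.036 with the abundance trend removed, and 0.17, 0.22, 0.16, 0.089 and 0.29 with the GC trend removed. With GC and density trends removed it was -0.053, -0.0044, -0.065, -0.042 and 0.067, the value at Gata3 being within counting error of 0. The median of the 5, 0.38, became 0.14, 0.31, 0.066, 0.17 and -0.042 in the same order of settings. Common scaling lowers all values by its construction, and for the trend removals the cause was not tested. A flank of 0 kb or 50 kb and pseudocounts of 1 and 10 left every difference within its counting interval. With a flank of 50 kb a further region enters beside Gata6, and the median over the 6 regions is 0.36. Only the Gata6 level per kb moved, from 271 to 219 with that flank. The counts of members past 1 stayed at 0 throughout, also with a mean count of at least 50. Depth does not limit the members, but variation between cell lines is unknown.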
